A study of Mus musculus with 11 samples.

Results

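The genes described here are those of cholesterol synthesis, uptake and efflux in mouse liver. They were chosen by platform gene symbol from a list of 33 genes, of which 29 were named by 56 of the 22690 probe sets, and all 29 were among the 7924 genes tested. Of the 56 probe sets, 51 were above the limit for dim signal, and the 5 below it were further probe sets of Fdps, Fdft1, Lss and Cyp51. Acat2, Insig1, Soat1 and Soat2 were on the list and were not analysed here, so no gene of cholesterol ester storage is reported. The RNA was from livers of 11 males on a mixed background, with 1 array for each. The first group, 4 mice, carried the Akt1 double transgene and ate a high-fat diet, and is the only one that the labels mark for muscle hypertrophy. The second group, 4 wild-type mice, also ate a high-fat diet, and the third, 3 wild-type mice, ate a normal diet. No transgenic mice ate the normal diet. Transgenic and normal-diet mice therefore differed in both genotype and diet, and their comparison cannot separate these. All 3 groups, controls included, received doxycycline, the drug used to switch inducible transgenes on, for 3 weeks. Akt1 encodes a serine/threonine kinase that acts downstream of the insulin receptor. The labels used here do not name the promoter or the cell type that drives the transgene, and give no ages.

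Cholesterol is built from acetyl-CoA by a long chain of enzymes in the cytosol and the endoplasmic reticulum. Genes of these enzymes are switched on by SREBP2, a transcription factor held in the endoplasmic reticulum membrane by SCAP and the INSIG proteins while sterols are plentiful, and released when sterols are scarce. The liver also takes up cholesterol from lipoproteins, frees it in lysosomes, and passes it to lipoprotein particles. Genes of cholesterol export are switched on by the oxysterol receptors of the LXR family. SREBP binds DNA beside other factors, among them NF-Y, which binds the CCAAT box.

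Promoter windows of RefSeq (build GRCm38.p6), covering 250 bases before to 50 bases after each annotated start, were matched by symbol for 23 of the 29 genes. Fdps, Fdft1, Sqle, Stard4, Npc1 and Scarb1 were not matched. A CCAAT box (CCAAT, either strand) was found in 14 of 17 windows of the synthesis genes (82.4%), against 37.4% of all 32851 windows in the table, and each of the 14 matched synthesis genes had a window with it. Of all 27025 genes in the table, 11096 had such a window. Windows holding a CCAAT box were 2 of 5 for efflux, 2 of 6 for SREBP2 control and 2 of 2 for release and transport genes. The core of the SREBP element, TCACNCCAC on either strand, stood in 1 synthesis window, that of Hmgcs1, and in 1.24% of all windows. An exact direct repeat of AGGTCA spaced by 4 bases, 1 form of the LXR element, was in 0 of the 30 windows described here. It was in 0.0152% of all windows, so the 0 does not show that these promoters lack an LXR element. These are matches of letters within short windows, and no mismatch was allowed. No match to 1 motif overlapped a match to another in the windows printed here.

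The windows of 6 synthesis genes are given because their signals in transgenic mice did not overlap those of normal-diet mice and had an unadjusted limma p under 0.05. In the order printed, they lie at chr13:119690101-119690400 (plus strand), chr8:122443373-122443672 (minus strand), chr13:8885356-8885655 (plus strand), chr5:4104648-4104947 (minus strand), chr19:6067801-6068100 (minus strand) and chr1:169969156-169969455 (minus strand). Each is written 5′ to 3′ on the gene's own strand. Capitals mark CCAAT or its reverse complement ATTGG and, in Hmgcs1, the single match to the SREBP element core, which begins at position -137 from the start.
Hmgcs1: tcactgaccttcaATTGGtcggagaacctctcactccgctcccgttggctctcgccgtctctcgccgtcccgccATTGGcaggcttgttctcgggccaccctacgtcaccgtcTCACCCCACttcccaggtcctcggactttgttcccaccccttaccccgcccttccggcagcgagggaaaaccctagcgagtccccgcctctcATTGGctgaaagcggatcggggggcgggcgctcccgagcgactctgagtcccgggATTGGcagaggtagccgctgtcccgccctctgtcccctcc
Mvd: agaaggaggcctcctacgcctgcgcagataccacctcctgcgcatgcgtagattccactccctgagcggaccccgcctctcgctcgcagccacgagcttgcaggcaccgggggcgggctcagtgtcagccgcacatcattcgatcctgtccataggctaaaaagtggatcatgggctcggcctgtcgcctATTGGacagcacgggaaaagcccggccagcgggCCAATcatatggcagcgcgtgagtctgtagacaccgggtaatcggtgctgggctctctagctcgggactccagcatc
Idi1: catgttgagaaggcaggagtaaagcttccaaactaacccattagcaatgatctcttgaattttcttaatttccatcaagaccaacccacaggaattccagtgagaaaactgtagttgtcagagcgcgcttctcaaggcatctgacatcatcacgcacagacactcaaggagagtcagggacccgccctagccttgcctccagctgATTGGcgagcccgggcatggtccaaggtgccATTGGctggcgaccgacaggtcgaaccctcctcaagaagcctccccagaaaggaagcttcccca
Cyp51: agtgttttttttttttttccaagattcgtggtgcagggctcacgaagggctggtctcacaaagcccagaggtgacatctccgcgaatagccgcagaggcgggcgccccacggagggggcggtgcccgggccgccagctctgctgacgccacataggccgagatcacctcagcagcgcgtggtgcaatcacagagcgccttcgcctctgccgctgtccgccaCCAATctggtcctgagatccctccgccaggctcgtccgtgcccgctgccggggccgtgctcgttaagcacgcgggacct
Tm7sf2: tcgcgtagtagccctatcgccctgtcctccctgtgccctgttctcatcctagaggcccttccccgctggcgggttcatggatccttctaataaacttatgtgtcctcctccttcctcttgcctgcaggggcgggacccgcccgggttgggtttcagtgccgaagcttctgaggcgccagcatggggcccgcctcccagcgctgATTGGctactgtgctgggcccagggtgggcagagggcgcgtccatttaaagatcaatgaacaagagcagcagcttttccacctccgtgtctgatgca
Hsd17b7: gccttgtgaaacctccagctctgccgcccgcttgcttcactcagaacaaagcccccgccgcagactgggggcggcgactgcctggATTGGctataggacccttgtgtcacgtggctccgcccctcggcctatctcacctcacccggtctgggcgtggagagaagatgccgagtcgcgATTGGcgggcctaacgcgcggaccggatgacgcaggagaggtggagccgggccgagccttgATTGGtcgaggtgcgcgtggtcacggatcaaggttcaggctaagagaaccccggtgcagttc
The Hmgcs1 window holds 4 CCAAT boxes, that of Hsd17b7 3, those of Mvd and Idi1 2 each, and those of Cyp51 and Tm7sf2 1 each. The window of Ebp and 1 of the 3 windows of Dhcr7 also hold 2, and the signals of these genes differed little between the high-fat groups. The windows of Mvk, Nsdhl and Msmo1 hold 5, 4 and 3, and the transgenic and normal-diet signals of these genes overlapped.

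Signals are linear values scaled by the authors to the same trimmed mean on each array, and values of different probe sets are not set against each other. Hepatocyte markers were bright in every group, with summed signals over 6 genes of 144706 to 194332 in transgenic, 139427 to 161146 in wild-type high-fat and 121442 to 144573 in normal-diet mice. Bile duct, neutrophil and skeletal muscle markers (0 of 4, 0 of 5 and 0 of 4 above the limit for dim probe sets, a mean signal of about 53.0) were dim. Transgenic arrays 3 and 4 had the top signals, 42426 and 43273, above 27780 to 35450 in the other 9. Transgenic array 3 also had the lowest mean signal of spiked poly-A control RNA, 113, against 286 to 463 in the other 10, and the highest ratio of 3′ to 5′ Gapdh signal, 0.823, against 0.669 to 0.768. The mean Spearman correlation with the other arrays was 0.940 for transgenic array 3 and 0.943 for transgenic array 4, against 0.948 to 0.951 in the other 9. Nothing in the labels says whether arrays within a group came from separate litters or days. The p-values treat the 11 livers as independent and set differences between groups against the spread within groups.

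Most synthesis genes had their lowest signal in transgenic liver 1 or 3, and the share of all genes that did so was not counted. The median log2 difference over the 17 measured synthesis genes was -0.53 in transgenic against wild-type mice on the high-fat diet and -0.71 in transgenic against normal-diet mice, where medians over all 7924 genes were 0.0010 and 0.0041. It was -0.13 in wild-type high-fat against normal-diet mice, with 0.0067 over all genes. Differences between transgenic and normal-diet mice, here and below, are of genotype and diet together. In whole liver, fewer cells of a type and less RNA per cell cannot be told apart. The 5 measured genes of the efflux list were Abca1, Nr1h3, Mylip, Scarb1 and Lcat, and not all of them act in export itself. Their medians were 0.18, 0.22 and 0.16 in the same comparisons. In the first comparison Abca1 and its regulator Nr1h3 were below 0, at -0.11 and -0.16, and Mylip, Scarb1 and Lcat were above it. In limma's test 0 of 29 genes had an adjusted p under 0.05 in each of the 3 comparisons, which share groups and are not independent. The share of all genes called was 0.366% for transgenic against wild-type high-fat mice (0.227% higher and 0.139% lower), 2.08% for transgenic against normal-diet mice (1.4% higher and 0.681% lower), and 0% for diet in wild-type mice. At an unadjusted p under 0.05 the counts were 6 of 29 (13.7% of all genes), 13 of 29 (18.3%) and 0 of 29 (7.02%), and groups did not overlap for 0 of 29 (8.4%), 10 of 29 (15.6%) and 1 of 29 (7.91%), in the same order of comparisons.

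By array, the median synthesis gene stood at -0.81, -0.18, -0.81 and -0.58 in transgenic mice 1 to 4, in log2 units relative to its normal-diet mean. In wild-type high-fat mice 1 to 4 it stood at -0.72, -0.031, -0.073 and 0.36, and in normal-diet mice at -0.15, 0.28 and -0.13. Transgenic mouse 2 was near the lower wild-type mice, and wild-type high-fat mouse 1 was within the range of the transgenic mice. Medians over all genes tested lay between -0.013 and 0.037 on every array. Efflux genes stood at 0.23, 0.17, 0.080 and 0.12 in transgenic, 0.27, 0.12, 0.11 and 0.073 in wild-type high-fat and 0.026, -0.023 and -0.0071 in normal-diet mice.

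**Figure D1:**
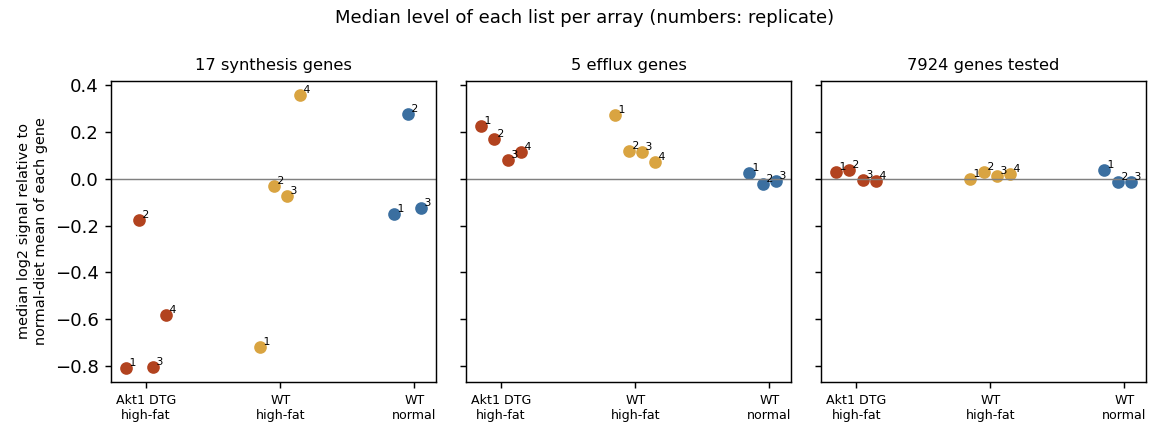
Median log2 signal per array, relative to each gene's normal-diet mean, for the 17 synthesis genes, the 5 efflux genes and all 7924 genes tested; each point is 1 mouse, numbered by replicate. The synthesis list spans -0.81 to 0.36 and the list of all genes -0.013 to 0.037.

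The median within-group SD of log2 signal was 0.39 over the synthesis genes in transgenic mice (0.23 over all genes), 0.52 in wild-type high-fat mice (0.21) and 0.28 in normal-diet mice (0.21). For the 5 efflux genes it was 0.14 in transgenic, 0.14 in wild-type high-fat and 0.22 in normal-diet mice. Of the 17 synthesis genes, 9 had their lowest signal of all 11 arrays in transgenic array 3 and 4 in transgenic array 1. It was in wild-type high-fat array 1 for 2, and in transgenic arrays 2 and 4 for 0. The highest signal was in wild-type high-fat array 4 for 9 of them and in normal-diet array 2 for 4. Such counts were not made over all genes, so no share stands beside them.

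**Figure D2:**
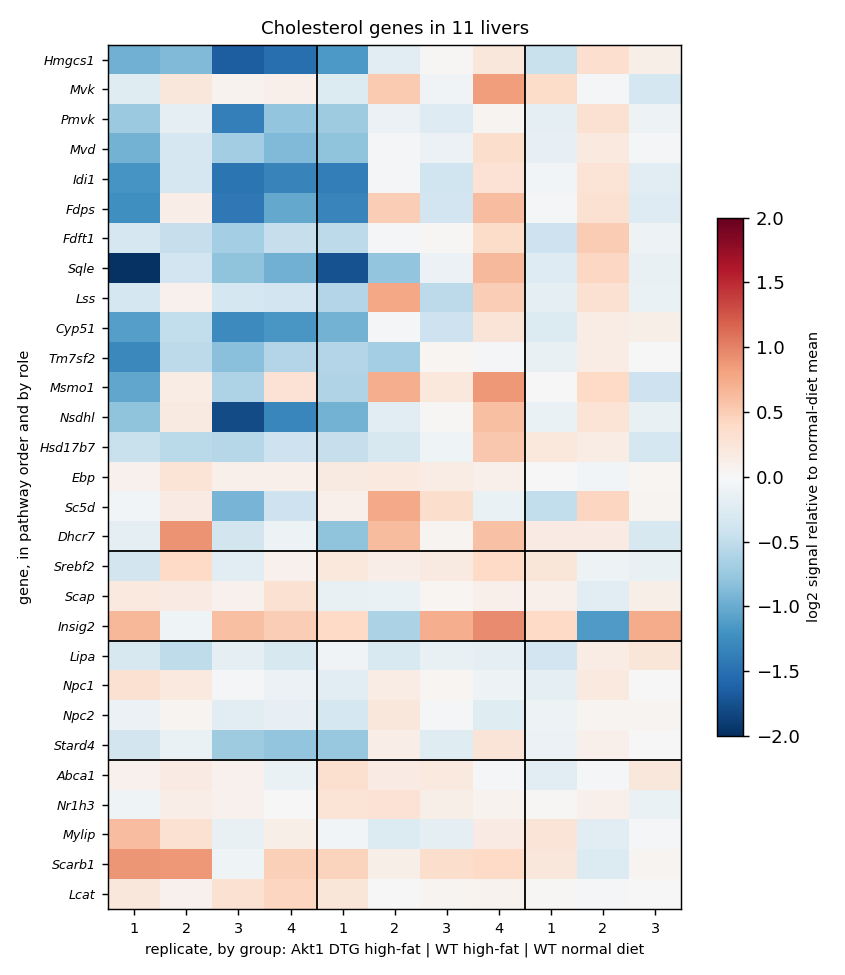
Log2 signal of each of the 29 genes (rows, in pathway order and by role) on 11 arrays (columns, by group and replicate), relative to the gene's mean on the normal diet; blue is lower and red higher. Blue fills most synthesis rows in transgenic mice 1, 3 and 4 and in wild-type high-fat mouse 1.

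All 17 synthesis genes had a log2 difference below 0 in transgenic against wild-type high-fat mice, as did 49.8% of all genes. So did all 28 of their probe sets above the limit for dim signal. These signs come from the same livers and are not independent. The sign held in 18 of 21 settings of the fit for Ebp and in 14 of 21 for Dhcr7. For each other synthesis gene it held in every setting. Of the 17, 5 had an unadjusted limma p under 0.05 and lower signal, against 6.74% of all genes. Yet for 0 of 17 did every transgenic array lie below every wild-type high-fat array (4.09% of all genes), or above it (4.32%). The count lower without overlap was 5 without wild-type high-fat array 1 (5.54% of all genes) and 3 without transgenic array 2 (6.68%), and it was 0 without any other single array. The median stayed between -0.71 and -0.38 in every alternative. Against the normal diet, 14 of 17 differences were below 0 (49.4% of all genes), 9 had an unadjusted p under 0.05 and lower signal (8.35%), and the groups did not overlap for 7 lower genes (41.2%, against 7.1% of all genes) and for 1 higher gene, Ebp (8.46% of all genes were higher without overlap). Without transgenic array 2 the count of lower genes was 11 of 17 (64.7%, against 10.6% of all genes), and without any other single array it was 7 to 9.

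For diet alone, the synthesis genes were mixed. Of 17, 11 had differences below 0 in wild-type high-fat against normal-diet mice (48.9% of all genes) and 0 had an unadjusted p under 0.05, where 3.92% of all genes were higher and 3.09% lower by that rule. No synthesis gene was lower without overlap (3.33% of all genes). The median of -0.13 changed sign without single arrays. It was 0.12 without wild-type high-fat array 1 and 0.0027 without normal-diet array 2.

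The first steps lead to mevalonate and its activated isoprene units. Hmgcs1, the cytosolic HMG-CoA synthase that joins acetyl-CoA to acetoacetyl-CoA, had signals of 3831, 4054, 2370.5 and 2634 in transgenic mice, 3369, 6479, 7604 and 8708 in wild-type high-fat mice and 5498, 9392 and 8078 in normal-diet mice. Every transgenic array lay below every normal-diet array, while wild-type high-fat array 1 lay inside the transgenic range. The means were 3222 ± 843 in the 4 transgenic livers, 6539.9 ± 2302 in the 4 of the wild-type high-fat group and 7656 ± 1981 in the 3 of the normal-diet group (mean ± SD, as for each mean given here). The log2 difference was -0.97 ± 0.29 (SE) against wild-type high-fat mice (limma adjusted p = 0.169) and -1.25 ± 0.31, 2.38-fold lower, against the normal diet (adjusted p = 0.0624). Hmgcs1 was the most different of the 29 genes by fitted size in both comparisons. Its other 3 probe sets had differences of -1.17, -1.43 and -1.39 against the normal diet, all without overlap. With all 20380 probe sets of 1 symbol in the fit, the one at -1.43 had a limma adjusted p of 0.0417.

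Pmvk, which adds the second phosphate to mevalonate, had signals of 325.8, 480.3, 209.7 and 315.5 in transgenic, 330.0, 502.2, 456.0 and 566.7 in wild-type high-fat and 475.6, 667.4 and 503.7 in normal-diet mice. Transgenic array 2 overlapped the normal-diet range by a small margin. Mvd, the decarboxylase that makes isopentenyl diphosphate, had 118.4, 179.8, 139.7 and 123.8 in transgenic, 130.1, 224.3, 209.5 and 290.5 in wild-type high-fat and 203.9, 260.1 and 221.6 in normal-diet mice. All 4 transgenic arrays were below all 3 normal-diet arrays at both of its probe sets. Idi1, the isomerase that balances the isoprene units, had 1224, 2179, 1007 and 1099 in transgenic mice, against 1054, 2702, 2104 and 3376 in wild-type high-fat and 2658, 3331 and 2379.6 in normal-diet mice. Its transgenic arrays again lay below the normal diet at both probe sets, with transgenic array 2 the nearest.

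Against the normal diet, the log2 differences in transgenic mice were -0.77 ± 0.26 for Pmvk, -0.71 ± 0.25 for Mvd and -1.08 ± 0.35 for Idi1 (SE), with adjusted p of 0.147, 0.16 and 0.14. Against wild-type high-fat mice they were -0.51, -0.57 and -0.69. Fdps, which condenses isoprene units into farnesyl diphosphate, averaged 2561 ± 1443 in transgenic, 4411 ± 2299 in wild-type high-fat and 4344 ± 856 in normal-diet mice. Transgenic array 2, at 4703, was apart from the other 3 at 1600.1 to 2118, so the Fdps groups overlapped. Mvk, the mevalonate kinase, averaged 249 ± 32.8 in transgenic, 299 ± 106 in wild-type high-fat and 245 ± 61.5 in normal-diet mice, with a log2 difference of 0.043 ± 0.26 against the normal diet.

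**Figure D3:**
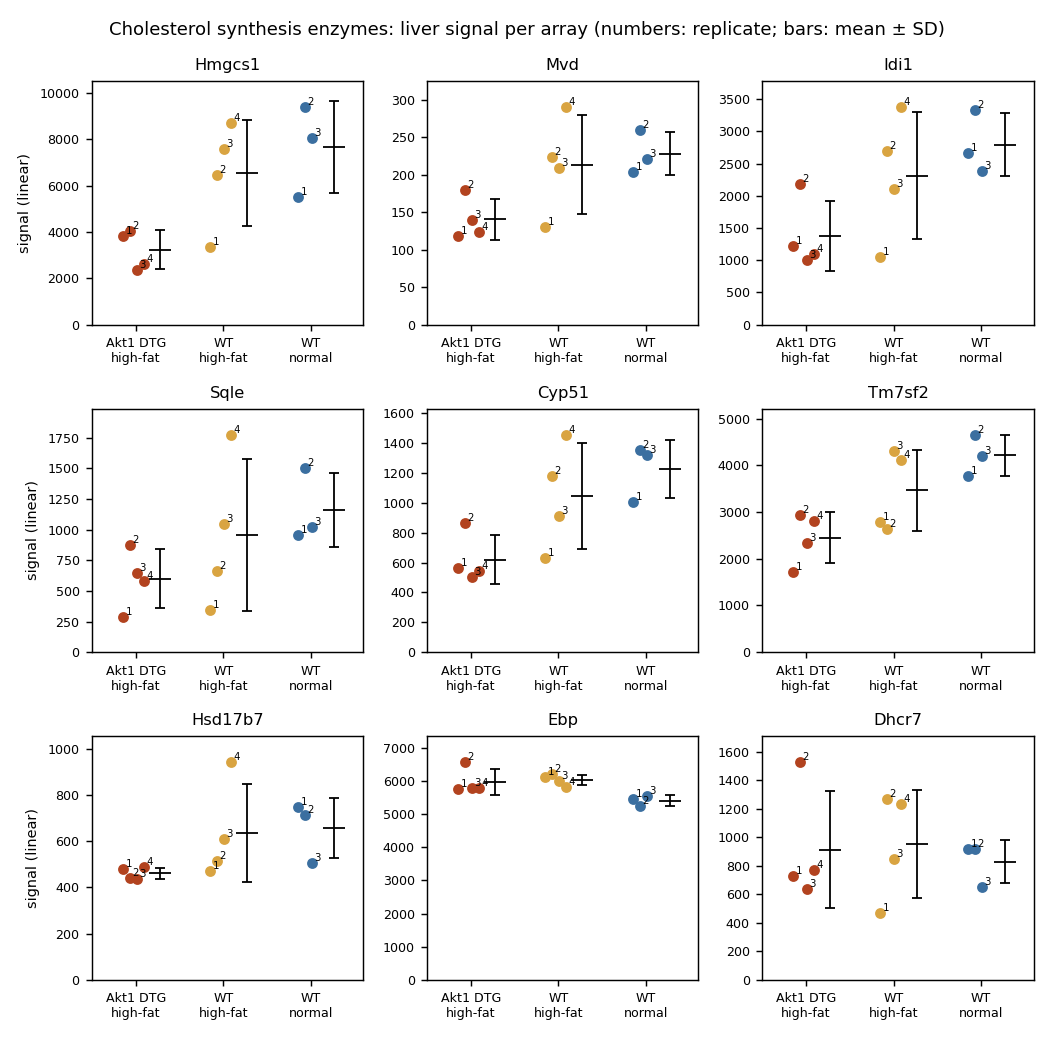
Linear signal of 9 synthesis genes per array, by group; points are mice numbered by replicate and bars are the mean ± SD. In Hmgcs1, Mvd, Idi1, Sqle, Cyp51, Tm7sf2 and Hsd17b7 all transgenic points lie below all normal-diet points, whereas Ebp is slightly higher and Dhcr7 overlaps.

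The next enzymes commit isoprenoids to sterols. Fdft1, squalene synthase, had signals of 2675, 2471, 2116 and 2475 in transgenic, 2366, 3305, 3462 and 4348 in wild-type high-fat and 2556, 4834 and 3149 in normal-diet mice. At this probe set 1 normal-diet array lay within the transgenic range, and at a second bright one the groups did not overlap (-0.55 against the normal diet). Sqle, the squalene epoxidase and a rate-limiting step of the later pathway, averaged 599.7 ± 242 in transgenic, 956 ± 618 in wild-type high-fat and 1161 ± 302 in normal-diet mice. The transgenic arrays, 289 to 876, lay below the normal-diet arrays, and the wild-type high-fat range of 340.3 to 1775 reached above both and covered most of them. Its log2 difference against the normal diet was -1.03 ± 0.48 (adjusted p = 0.285), with an SE among the largest of the list. Lss, which closes the sterol rings to make lanosterol, averaged 382 ± 63.9 in transgenic, 506 ± 236 in wild-type high-fat and 456 ± 85.8 in normal-diet mice, with overlap in every comparison.

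Lanosterol is then trimmed and rearranged into cholesterol. Cyp51, the lanosterol demethylase, had signals of 564.4, 865.2, 502.7 and 545.1 in transgenic, 631.3, 1178, 913.3 and 1455 in wild-type high-fat and 1006, 1351 and 1321 in normal-diet mice. All transgenic arrays were below the normal diet, and wild-type high-fat array 1 was the only one of its group inside the transgenic range. The difference was -0.72 ± 0.24 against wild-type high-fat mice (adjusted p = 0.221) and -1.01 ± 0.26 against the normal diet (adjusted p = 0.0729). Tm7sf2, a sterol C14 reductase, had 1724, 2934, 2345 and 2808 in transgenic, 2797, 2633, 4302 and 4123 in wild-type high-fat and 3782, 4657 and 4212 in normal-diet mice. Here wild-type high-fat arrays 1 and 2 both lay within the transgenic range, and the difference was -0.81 ± 0.21 against the normal diet (adjusted p = 0.0741).

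Nsdhl, a sterol dehydrogenase of the demethylation complex, had 1075, 2129.5, 545.4 and 766.5 in transgenic, 978.5, 1624, 1922 and 2863 in wild-type high-fat and 1725, 2281 and 1700.0 in normal-diet mice. Transgenic array 2 stood with the normal diet and the other 3 well below it, for a difference of -0.93 ± 0.42. Hsd17b7, the keto reductase of the same complex, had 477.1, 442.3, 436.5 and 486.6 in transgenic, 469.9, 515.2, 609.9 and 940.5 in wild-type high-fat and 747.2, 714.1 and 505.6 in normal-diet mice. The transgenic values were tightly grouped just below the lowest normal-diet array, but a second probe set overlapped, at -0.21 against -0.49. Msmo1, the methyl oxidase of these steps, averaged 5407 ± 2196 in transgenic, 8261 ± 3273 in wild-type high-fat and 6410.2 ± 1787 in normal-diet mice, with overlap throughout.

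Of the last enzymes of the chain, Ebp and Dhcr7 had differences near 0 and Sc5d did not. Sc5d, the lathosterol desaturase, had 5850.3, 6801, 3181 and 4564 in transgenic, 6521, 10278, 7701 and 5529.9 in wild-type high-fat and 4329, 8165 and 6303 in normal-diet mice. Its groups overlapped, with a difference of -0.58 ± 0.26 against wild-type high-fat mice (adjusted p = 0.359). Dhcr7, the reductase of the final step, averaged 914 ± 412 in transgenic, 954 ± 376 in wild-type high-fat and 829.6 ± 152 in normal-diet mice. Ebp, the sterol isomerase, averaged 5977 ± 394 in transgenic, 6033 ± 165 in wild-type high-fat and 5414 ± 161 in normal-diet mice. Every array of both high-fat groups had more Ebp signal than every normal-diet array (4.58% of all genes did so for diet), a difference of 0.16 ± 0.081 for diet that did not pass (adjusted p = 0.762).

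**Figure D4:**
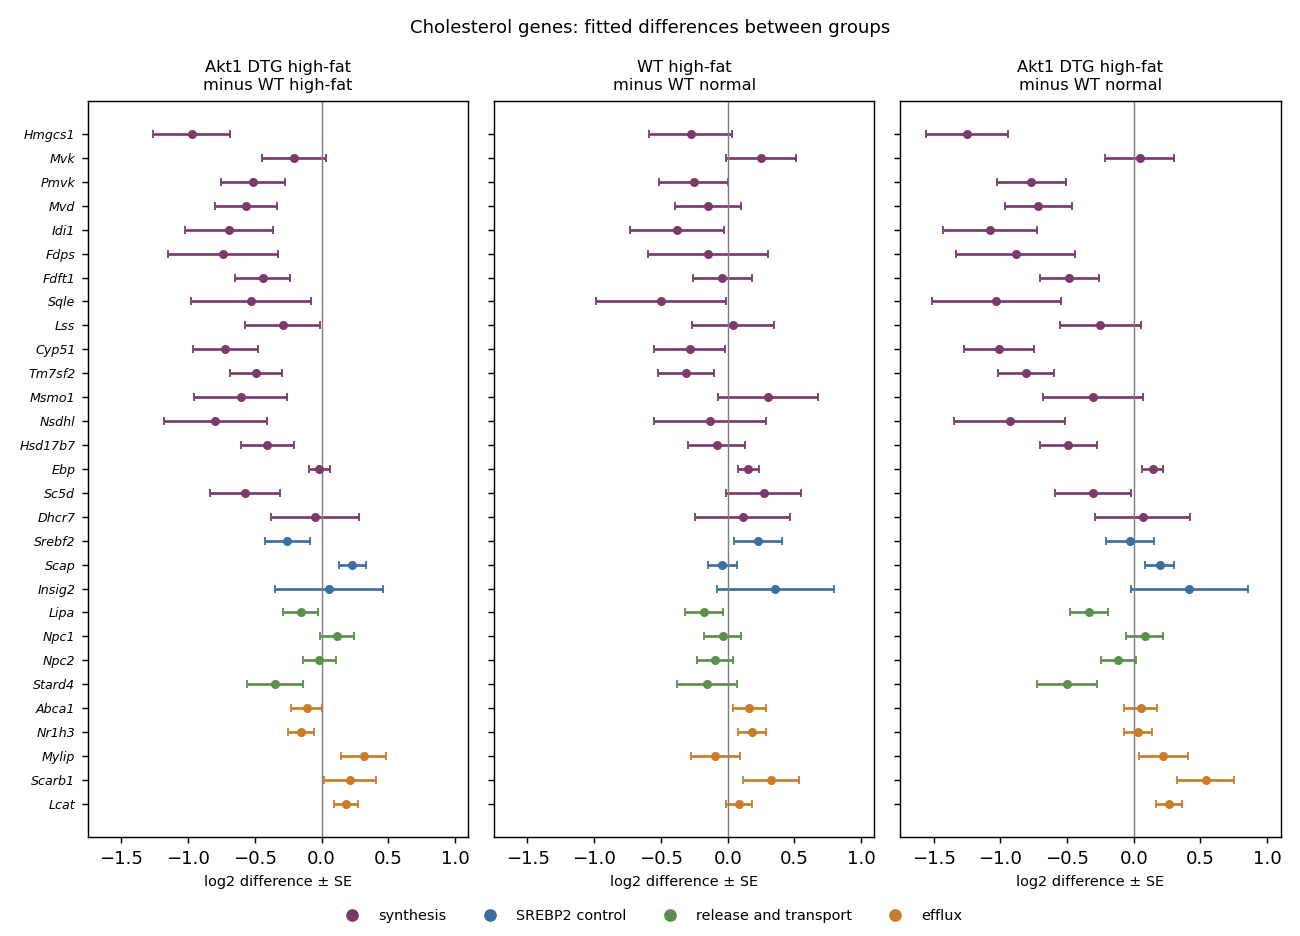
Log2 difference ± SE from limma for each of the 29 genes in the 3 comparisons, coloured by role. In the left panel all 17 synthesis genes lie below 0, from -0.97 to -0.015, and the efflux genes lie from -0.16 to 0.31.

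The genes that control SREBP2 had differences of mixed sign. Srebf2, which encodes SREBP2, had signals of 269.5, 458.8, 299.8 and 367.9 in transgenic, 402.8, 380.2, 394.4 and 458.7 in wild-type high-fat and 413.6, 323.1 and 315.2 in normal-diet mice. The groups overlapped, with differences of -0.26 ± 0.17 against wild-type high-fat and -0.026 ± 0.18 against normal-diet mice. Scap, the escort that carries SREBP2 to the Golgi, had 2114, 2072, 1959 and 2280.3 in transgenic, 1652, 1685, 1880.5 and 1965 in wild-type high-fat and 1965, 1595 and 1985 in normal-diet mice. Only transgenic array 3 was below the highest wild-type high-fat array, and the difference of 0.23 ± 0.10 did not pass (adjusted p = 0.345).

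Insig2, a retention protein of the endoplasmic reticulum, varied more within groups than between them. Its signals were 4145, 2466, 3977 and 3676 in transgenic, 3452, 1686, 4315 and 5055 in wild-type high-fat and 3452, 1189 and 4383 in normal-diet mice. The array numbered 2 was the lowest of its group in all 3 groups, at each of the 3 Insig2 probe sets. These probe sets read the same gene in the same livers, and the share of all genes with this order was not counted. The difference against the normal diet was 0.42 ± 0.44, and without normal-diet array 2 it was -0.15. What the shared number stands for is not given in the labels.

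Of the 4 measured genes of lysosomal release and transport, Stard4 and Lipa had an unadjusted limma p under 0.05 against the normal diet. Both were lower in transgenic mice (2 of 4, against 8.35% of all genes), and Stard4 was the most different there. In the other comparisons 0 of 4 had such a p. Stard4, a sterol carrier that SREBP2 induces, had 1347, 1597, 1059.6 and 1006 in transgenic, 1036, 1912, 1466 and 2075 in wild-type high-fat and 1608, 1877 and 1755 in normal-diet mice. All transgenic arrays were below all normal-diet arrays, if narrowly, for a difference of -0.50 ± 0.23 (adjusted p = 0.263), and a second probe set at -0.55 overlapped. Lipa, the lysosomal acid lipase that frees cholesterol from its esters, had 2233, 1967, 2419.8 and 2233 in transgenic, 2654, 2242, 2512 and 2449 in wild-type high-fat and 2132, 3084 and 3279 in normal-diet mice. Normal-diet array 1 overlapped the transgenic arrays, and the difference was -0.33 ± 0.14 (adjusted p = 0.24), while a second probe set at -0.51 did not overlap. Npc1 and Npc2, which move cholesterol out of lysosomes, had differences of 0.083 ± 0.14 and -0.11 ± 0.13 against the normal diet and overlapped in every comparison.

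Efflux and lipoprotein genes had differences against the normal diet that were near 0 or above it. Scarb1, the HDL receptor SR-BI, had signals of 4995, 4946, 2552 and 3758 in transgenic, 3687, 2937, 3428 and 3549 in wild-type high-fat and 3147, 2229.5 and 2806 in normal-diet mice. Transgenic array 3 was within the normal-diet range and the other 3 transgenic arrays above it. The difference was 0.54 ± 0.21 against the normal diet (adjusted p = 0.203) and 0.21 ± 0.20 against wild-type high-fat mice. Its other 2 probe sets had smaller differences, of 0.45 and 0.26 against the normal diet and 0.14 and 0.035 against wild-type high-fat mice. Without transgenic array 3 the difference of the brightest against the normal diet was 0.75 with a limma adjusted p of 0.0444, where the adjusted p ranged from 0.0444 to 0.452 over all alternatives. Lcat, the plasma enzyme that esterifies cholesterol on HDL, had 9546, 8699, 10122 and 11047 in transgenic, 9607, 8076, 8458 and 8583 in wild-type high-fat and 8308, 8057 and 8121 in normal-diet mice. Every transgenic array exceeded every normal-diet array, by 0.27 ± 0.098 (adjusted p = 0.178). It was the only 1 of 5 efflux genes higher without overlap, where 8.46% of all genes were.

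Abca1, the membrane pump that loads cholesterol onto apolipoprotein A-I and a classic LXR target, was read by 3 probe sets that disagreed. The brightest had 3985, 4233, 3994 and 3443 in transgenic, 4726, 4229, 4329.9 and 3650.0 in wild-type high-fat and 3267, 3704 and 4408 in normal-diet mice, with no order between groups (0.052 ± 0.12 against the normal diet). The second had 1025, 1109, 923.1 and 933.1 in transgenic, 1071, 986.1, 947.7 and 788.6 in wild-type high-fat and 604.4, 813.3 and 860.2 in normal-diet mice, and each transgenic array exceeded each normal-diet array. The dimmest had 512.8, 545.0, 406.7 and 466.8 in transgenic, 537.9, 466.6, 442.5 and 403.3 in wild-type high-fat and 300.9, 342.3 and 407.8 in normal-diet mice, with overlap. In transgenic against normal-diet mice the second and the dimmest had larger differences than the brightest, 0.41 ± 0.14 and 0.47 ± 0.15. Neither passed over all probe sets (limma adjusted p of 0.218 and 0.183). For diet alone these 2 had differences of 0.33 ± 0.14 and 0.40 ± 0.15, against 0.16 ± 0.12 at the brightest, and none passed over all probe sets (adjusted p of 0.81, 0.763 and 0.926).

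Nr1h3, which encodes LXR alpha, averaged 842 ± 55.2 in transgenic, 938 ± 71 in wild-type high-fat and 826 ± 68 in normal-diet mice. Mylip, an LXR-induced ubiquitin ligase that removes lipoprotein receptors, averaged 544 ± 121 in transgenic, 432 ± 59.1 in wild-type high-fat and 462 ± 77.8 in normal-diet mice. Neither separated any pair of groups, with differences of -0.16 ± 0.098 and 0.31 ± 0.17 in transgenic against wild-type high-fat mice.

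**Figure D5:**
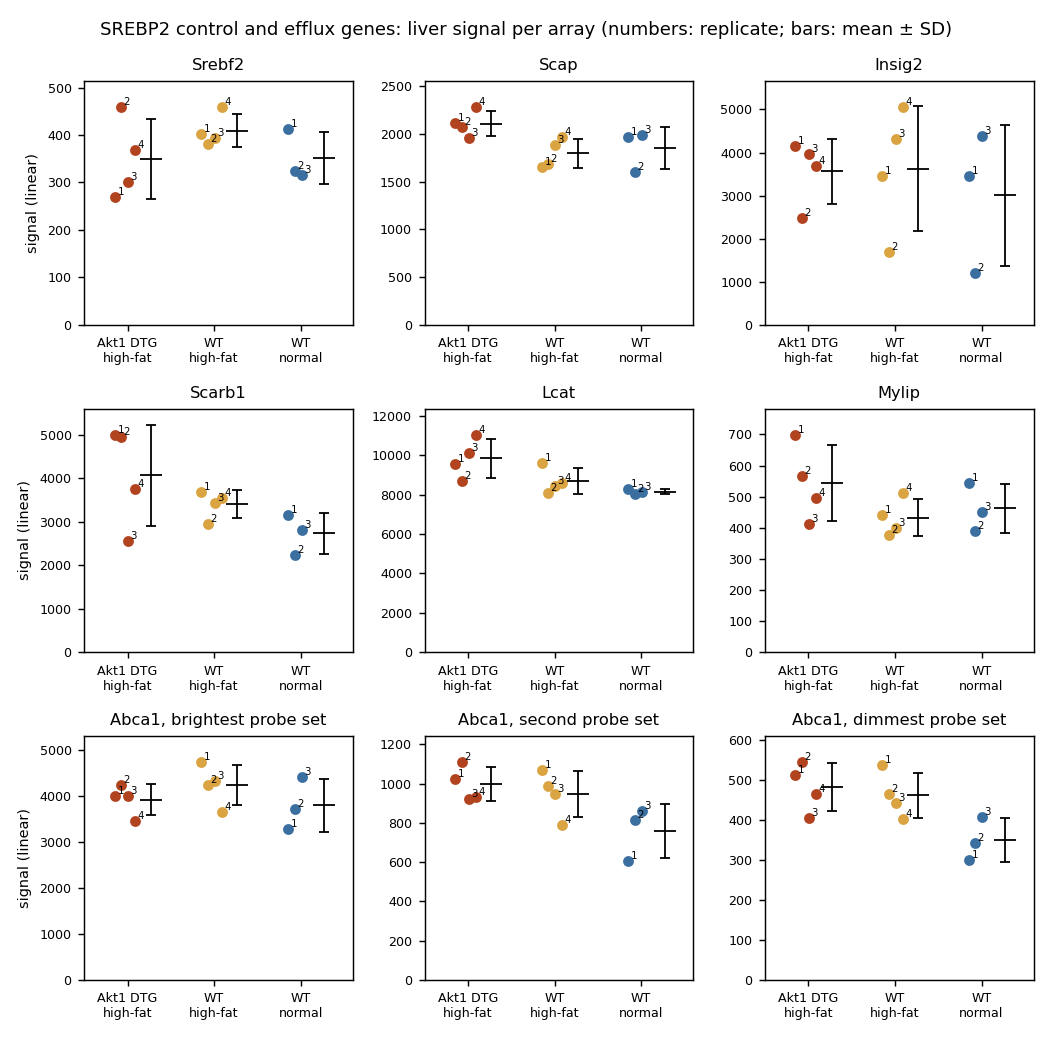
Linear signal per array of Srebf2, Scap, Insig2, Scarb1, Lcat, Mylip and the 3 probe sets of Abca1; points are mice numbered by replicate and bars are the mean ± SD. Replicate 2 is lowest in each group for Insig2, and Lcat is higher in each transgenic than in each normal-diet mouse.

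Set side by side, the synthesis and efflux medians had opposite signs in transgenic against wild-type high-fat mice (-0.53 and 0.18). They also did in transgenic against normal-diet mice (-0.71 and 0.22) and for diet alone in wild-type mice (-0.13 and 0.16). The synthesis median for diet alone changed sign without single arrays. Efflux medians of the wild-type high-fat arrays (0.073 to 0.27) were all above those of the normal-diet arrays (-0.023 to 0.026). Between the high-fat groups, however, 2 of 5 efflux genes had differences below 0, as did 49.8% of all genes. Array by array, the efflux medians of these groups overlapped (transgenic 0.080 to 0.23, wild-type 0.073 to 0.27), so the arrays showed no clear efflux shift there. No synthesis gene exceeded 0.14 in the comparison with the normal diet, and the efflux genes ranged from 0.029 to 0.54. The list median per array, taken after each gene's group mean was subtracted, had an SD pooled within groups. This SD was 0.37 for the synthesis list and 0.074 for the efflux list. The efflux median against wild-type high-fat mice was 0.073 without transgenic arrays 3 and 4. The synthesis median without these arrays was -0.38 against wild-type high-fat and -0.46 against normal-diet mice.

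Of 31 further genes of the pathway, 19 were tested and none passed in any comparison. In transgenic against wild-type high-fat mice 2 had an unadjusted p under 0.05 and higher signal (6.95% of all genes) and 1 lower signal (6.74%). Against the normal diet 4 were higher (9.96%) and 2 lower (8.35%), and for diet alone 1, the lipoprotein receptor gene Lrp1, was higher (3.92%) at 0.25 ± 0.11. Erlin1, a membrane protein of sterol-regulated degradation in the endoplasmic reticulum, averaged 1936 ± 256 in transgenic, 1370 ± 406 in wild-type high-fat and 1155 ± 156 in normal-diet mice, a difference of 0.74 ± 0.19 against the normal diet (adjusted p = 0.0725). Dhdds, which builds dolichol chains on the isoprenoid side branch, averaged 394 ± 43.6 in transgenic, 319 ± 25.6 in wild-type high-fat and 269 ± 40.1 in normal-diet mice, a difference of 0.56 ± 0.14 (adjusted p = 0.0636). Cyp7b1, an oxysterol hydroxylase, averaged 6295 ± 2281 in transgenic and 10434 ± 2501 in wild-type high-fat mice, a difference of -0.80 ± 0.31 (adjusted p = 0.286). Srebf1, the SREBP gene of fatty acid synthesis, averaged 2526 ± 954 in transgenic, 3223 ± 744 in wild-type high-fat and 2153 ± 496 in normal-diet mice.

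Markers of other liver cell types also differed between groups. Endothelial markers (5 of 5 above the limit for dim signal) summed to 3135 to 3971.5 in transgenic, 2476 to 3084 in wild-type high-fat and 2626 to 3582 in normal-diet mice, so every transgenic array was above every wild-type high-fat array and the normal-diet range overlapped both. Stellate cell markers (4 of 5 above the limit) summed to 4328 to 5426 in transgenic, 4546 to 7819.7 in wild-type high-fat and 4696 to 4926 in normal-diet mice, with overlap. Summed signals over the 7 Kupffer cell markers were 3418 to 10992 in transgenic, 2613 to 6670 in wild-type high-fat and 1835 to 3869.7 in normal-diet mice. The Kupffer cell ranges overlapped, and 6 of the 7 were above the limit for dim signal. The dim one, Marco, averaged 70.5 in transgenic, 50.7 in wild-type high-fat and 5.30 in normal-diet mice. The part of these markers in the differences above was not tested, nor was that of the low spiked RNA signal and high Gapdh ratio of transgenic array 3, which held the lowest value of 9 synthesis genes.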

How the data were processed

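Liver RNA of 11 mice was read on 1-colour arrays of 22690 probe sets. The intensity values are those deposited by the authors, on a linear scale with a trimmed mean near 500.3 on each array. MAS5 is named in the submitters' processing notes, and its version is not given in the sources used here. The number of arrays limits the precision. Groups were taken from the labels.

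From these values, 1385 signals under 1 were set to 1 and log2 was taken. The dimmest 40% of probe sets, ranked on mean log2 signal, were left out, and of probe sets with 1 gene symbol (20380, against 691 with several and 1555 with none) the one with the highest mean stood for its gene. Symbols came from the platform annotation, and 20351 matched RefSeq. All 11 arrays were fitted in limma 3.58.1 (R 4.3.3) with a mean-variance trend, a two-sided moderated test and Benjamini-Hochberg adjustment over 7924 genes. SE are those of the fit and SD those of linear signals. The fit was tested on simulated data. The named genes are the members of the lists. Members and lists were chosen with earlier results of these data known. Alternatives changed the filter, offset, normalization, probe set choice, moderation, weights, samples and block.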

Additional observations from a re-analysis of the deposited data

Results flagged for a closer look

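In a group of 4 mice, 1 value stood far from the other 3 for 2 genes, both in transgenic array 2. Lss had a signal of 478.1 there, the highest, against 346.5 to 353.6 in the other 3 transgenic arrays. Ebp had 6567.2 there, against 5761.1 to 5800.9 in the others. Of 58 sets of 4 values tested (29 genes in each high-fat group), chance alone would pick out about 2.9, or about 1 in 20.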

How the results depend on the processing

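No member of the diet comparison, and none of transgenic against wild-type high-fat mice, passed an adjusted p of 0.05 in any alternative. Against the normal diet the count of members called, 0, became 1 with all probe sets (also without the dim filter, a combination chosen after seeing the data), 1 with only the groups compared (Hmgcs1, limma adjusted p = 0.0463), and 0 to 2 on leaving out 1 array. It was 2 without wild-type high-fat array 1 (Hmgcs1 and Cyp51), 1 without transgenic array 2 (Cyp51) and 1 without transgenic array 3 (Scarb1). With the replicate number as a block it was 2 (Cyp51, adjusted p = 0.0431, and Tm7sf2, 0.0425). After each gene's group mean was subtracted, same-numbered arrays correlated at 0.084, 0.29, 0.14 and 0.12 in the high-fat groups. Between transgenic and normal-diet mice the correlations were -0.059 to 0.11. Arrays of different numbers were not compared in this way, and the numbers were not taken to pair the mice. The efflux median in transgenic against wild-type high-fat mice, 0.18, was 0.078 with all probe sets, with or without the filter, 0.11 with quantile normalization, 0.073 without transgenic arrays 3 and 4 (chosen after seeing the data), and 0.095 to 0.23 without 1 array. Against the normal diet it was 0.092 to 0.28 without 1 array. For diet alone, 0.16 became 0.099 without normal-diet array 1 and 0.11 without wild-type high-fat array 1. Over all genes, 29 calls in transgenic against wild-type high-fat mice became 0 without the variance trend and 0 to 64 without 1 array, and 165 against the normal diet became 81 without the trend and 36 to 199 without 1 array. The 6 members at an unadjusted p under 0.05 in the first comparison became 14 without wild-type high-fat array 1, 12 without transgenic array 2, 12 with the replicate block, and 3 without transgenic array 1, without wild-type high-fat array 3 or without transgenic arrays 3 and 4. The 13 against the normal diet became 5 without normal-diet array 2 and 7 without transgenic array 1 or 4. The cause of these shifts was not tested. The number of arrays and dim signals limit what small differences can show.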
